A study of Mus musculus with 7 samples.

Results

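Transcripts of 10 genes of fatty acid uptake, storage and sensing were followed in vascular fragments of mouse brain after an injection of PDGF-CC (a ligand of the receptor PDGFR-alpha) into the cerebral ventricles. The genes are Angptl4, Lpl, Gpihbp1, Cd36, Fabp4, Fabp5, Plin2, Ppara, Ppard and Pparg. Each was read from the brightest of those probe sets that the platform annotation gives to that gene alone, and all 10 could be read this way, of 22180 genes on the array with such a probe set. The genes were chosen from earlier results of this very comparison, in which Angptl4 stood out. Their differences between the groups are therefore a description, without a test of single genes.

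All mice were 12-week-old female C57BL/6N animals (the sample labels say C57BL/6), with no other genotype named. The treated group (4 arrays) had received PDGF-CC and the control group (3 arrays) phosphate-buffered saline, PBS, in both cases 4 hours before the animals were killed. Each array held RNA of 1 sample of vascular fragments, which are pieces of small vessels with their endothelial, mural and attached cells. The labels give no dose, and do not say whether a sample came from 1 mouse or several, so p-values reflect only how these samples varied, and part of that variation may be technical. Numbers in the sample descriptions run from 1 to 7, with 1, 2, 5 and 6 for PDGF-CC arrays 1 to 4, and 3, 4 and 7 for PBS arrays 1 to 3. Their meaning is not given. Within 1 to 4 and within 5 to 7 the PDGF-CC numbers come before the PBS numbers, so inside each run treatment and that order cannot be told apart.

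Fatty acids reach tissues mainly as triglycerides of lipoproteins. Lipoprotein lipase (LPL), held on the capillary wall by GPIHBP1, frees them, and the secreted protein ANGPTL4 inactivates the enzyme. CD36 takes up the fatty acids, FABP4 and FABP5 carry them inside the cell, and perilipin 2 (Plin2) coats the droplets in which they are stored. The PPARs (alpha, delta and gamma) are nuclear receptors that fatty acids activate, and Angptl4, Plin2, Cd36 and Fabp4 are textbook targets of theirs. Vessels of the brain are known for low uptake of fatty acids by this route compared with those of heart or fat.

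PPARs bind DNA with a partner of the RXR family at a doubled AGGTCA motif. RefSeq promoters of the assembly GRCm38.p6, from 250 bases before to 50 bases after a gene's start, were matched for 5 of the 10 genes, as 7 promoters. These were Plin2, Cd36, Pparg, Ppara and Ppard. No promoter of Angptl4, Lpl, Gpihbp1, Fabp4 or Fabp5 was at hand, so none of theirs was searched for any motif. The promoters of Plin2 and Cd36 are shown because both genes are PPAR targets whose levels can be set beside that of Angptl4. Each holds the AGGTCA motif, in capitals (TGACCT where it lies on the other strand). A single AGGTCA was searched for, not the doubled motif, so a match is not by itself a PPAR site. Only the 250 bases before the start are printed, 5′ to 3′ on the gene's strand, which is the minus strand for both.
Plin2, chr4:86670060-86670309: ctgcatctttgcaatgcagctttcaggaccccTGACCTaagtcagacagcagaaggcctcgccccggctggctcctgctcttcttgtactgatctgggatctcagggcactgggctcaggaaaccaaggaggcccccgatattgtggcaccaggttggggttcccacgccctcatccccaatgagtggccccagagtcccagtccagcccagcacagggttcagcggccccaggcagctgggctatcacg
Cd36, chr5:17835897-17836146: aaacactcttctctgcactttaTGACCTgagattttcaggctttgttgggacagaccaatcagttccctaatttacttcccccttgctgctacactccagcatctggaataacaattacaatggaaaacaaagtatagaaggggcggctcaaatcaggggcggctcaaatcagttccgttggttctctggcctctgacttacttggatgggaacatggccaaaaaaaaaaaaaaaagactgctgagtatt
With the start base counted as 0, the motif begins at position -218 in Plin2 and at -228 in Cd36. Counting either strand, 4 of the 7 promoters held it, the others being 2 of the 3 Pparg promoters, against 16.3% of 32851 promoters in the table. The motif TGTTCT of the glucocorticoid receptor was found in 0 of the 7 (19.0% of all), and the FOXO motif GTAAACA in 0 (3.65%). The hypoxia motif ACGTG lay in 2, those of Plin2 and Ppard (19.6%). A match is only a match of letters in this window, and nothing follows from it, or from its absence, about binding.

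Endothelial identity of the samples was clear. All 14 brain endothelial markers were measured, with Cldn5 between 9.81 and 10.23 and Slc2a1 between 12.09 and 12.54 on the log2 scale, and their differences between groups lay between -0.16 and +0.20. Other markers differed more. Of 9 choroid plexus markers 8 were lower in PDGF-CC, with a summed level (log2 of the summed intensities) of 12.49 to 12.94 in PDGF-CC and 13.02 to 13.15 in PBS, and all 9 were above the brightness filter. Of 11 microglial markers 10 were higher, with a summed level of 13.47 to 13.56 against 12.86 to 13.42. PBS array 2 was the lowest, with the other PBS arrays at 13.36 and 13.42. Dropping it took the median difference of the list from +0.231 to +0.072 and the count of higher markers to 8 of 11. Pericyte markers were lower in 9 of 10, with overlapping summed levels (13.06 to 13.38 against 13.23 to 13.41). In such samples, fewer cells of a type and less RNA per cell cannot be told apart. The part of these cell types in the values below was not tested.

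Angptl4 was the gene of the 10 with the widest gap between the groups. Its log2 intensity was 5.68, 6.59, 6.01 and 5.81 in PDGF-CC arrays 1 to 4 and 7.77, 8.23 and 7.34 in PBS arrays 1 to 3. Every PDGF-CC array lay below every PBS array. The means were 6.02 ± 0.40 (SD, n = 4) and 7.78 ± 0.44 (SD, n = 3), a difference of -1.76 ± 0.273 (SE) or 3.38-fold lower after PDGF-CC. Angptl4 is read by 1 probe set only, so no other probe set bears on the value. Within description numbers 1 to 4 the difference was -1.86 and within 5 to 7 it was -1.43. Leaving out any of the 7 arrays in turn gave values from -1.98 (without PBS array 3) to -1.53 (without PBS array 2). Choroid plexus markers were lower in the same arrays, as given above, and their part in the Angptl4 difference was not tested.

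The fit over the whole table called no probe set. Of 17734 probe sets tested with limma and Benjamini-Hochberg adjustment, 0 passed an adjusted p under 0.05 (0.00%), and 1071 had an unadjusted p under 0.05 (6.04%). Of the 10 genes, all passed the brightness filter and 0 were called. In 1 of the 10, Angptl4, all PDGF-CC arrays were below all PBS arrays, where 2.50% of tested probe sets had that pattern, and in 0 of the 10 all were above (1.80% of probe sets). Because this contrast was used in choosing the genes, nothing is read from these counts. For 8 of the 10 the mean was lower after PDGF-CC, as it was for 51.6% of all tested probe sets. The median difference of the 10 was -0.179 (-0.077 without Angptl4), beside -0.004 over all tested probe sets. A difference as low as that of Angptl4 or lower occurred in 2 of the 17734 probe sets, Angptl4 included. Angptl4 was chosen because it stood out in this comparison, so nothing is read from that rank either.

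**Figure D1:**
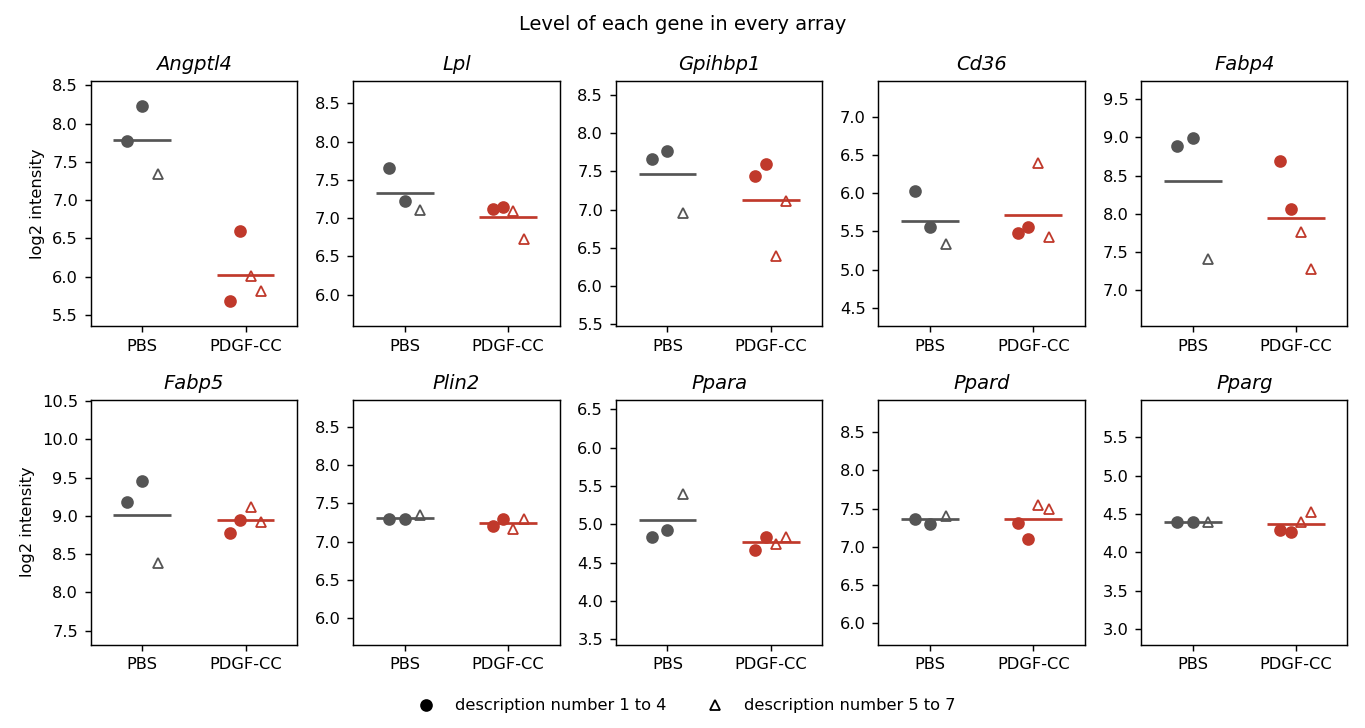
Log2 intensity of each of the 10 genes in every array, PBS in grey and PDGF-CC in red, with a line at the group mean; each panel spans the same number of log2 units. Filled circles are arrays with description numbers 1 to 4 and open triangles those with 5 to 7. Only the Angptl4 groups are apart, at 5.68 to 6.59 against 7.34 to 8.23.

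The enzyme that ANGPTL4 inhibits and the protein that anchors it showed smaller and overlapping differences. Lpl was at 7.12, 7.15, 7.09 and 6.73 in PDGF-CC arrays 1 to 4 and at 7.65, 7.22 and 7.11 in the PBS arrays. PBS array 1 was the highest and PDGF-CC array 4 the lowest, and the other 5 arrays lay between 7.09 and 7.22. The difference was -0.31 ± 0.157 (SE), and -0.14 without PBS array 1. A second, dimmer Lpl probe set, at 6.15 to 6.39 over the 7 arrays, differed by +0.05 ± 0.0648, so the probe sets of Lpl disagree in sign.

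Gpihbp1, which carries LPL to the vessel lumen, was at 7.44, 7.59, 6.39 and 7.11 in the PDGF-CC arrays and at 7.66, 7.77 and 6.95 in the PBS arrays. The arrays numbered 5 to 7 were the 3 lowest in both groups together, with a mean of 6.82 against 7.61 for those numbered 1 to 4. The difference between the treatments was -0.33 ± 0.324 (SE), about the size of its error. It came to -0.20 and -0.21 inside the runs of numbers, and to -0.08 without PDGF-CC array 3, -0.17 without PBS array 2 and -0.58 without PBS array 3.

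Uptake and carrier genes varied more between samples than between treatments. The scavenger receptor gene Cd36 was at 5.48, 5.56, 6.40 and 5.43 in the PDGF-CC arrays and at 6.03, 5.56 and 5.33 in the PBS arrays. PDGF-CC array 3 was the highest, PBS array 1 followed, and the other 5 lay between 5.33 and 5.56. The difference was +0.08 ± 0.273 (SE). Leaving out PDGF-CC array 3 turned it to -0.15, and leaving out PBS array 3 to -0.08. It ran from +0.04 (PBS array 2 left out) to +0.27 (PBS array 1 left out) for the other arrays, with +0.15, +0.13 and +0.17 when PDGF-CC array 1, 2 or 4 was dropped. Arrays numbered 1 to 4 gave -0.28 and those numbered 5 to 7 gave +0.58.

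Fabp4, a fatty acid carrier of capillary endothelium, fat cells and macrophages, was at 8.69, 8.06, 7.76 and 7.28 in the PDGF-CC arrays and at 8.89, 8.99 and 7.41 in the PBS arrays. The 4 arrays numbered 1 to 4 were all above the 3 numbered 5 to 7, with means of 8.65 and 7.48, and the treatment groups overlapped. The difference of -0.48 ± 0.465 (SE) became -0.99 without PBS array 3 and -0.73 without PDGF-CC array 1. It shrank to -0.26 when PDGF-CC array 4 was dropped, -0.25 when PBS array 1 was dropped and -0.20 when PBS array 2 was dropped. Among arrays numbered 1 to 4 it was -0.56, among those numbered 5 to 7 +0.12. The residual SD of Fabp4 within groups, 0.721, was matched or passed by 0.344% of tested probe sets. That of Gpihbp1, 0.500, was matched or passed by 1.28%, of Angptl4, 0.419, by 2.18%, and of Plin2, 0.0565, by 88.9%.

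Fabp5, a carrier also made by brain endothelium, has 4 probe sets. The brightest was at 8.78, 8.94, 9.11 and 8.92 in the PDGF-CC arrays and at 9.18, 9.45 and 8.39 in the PBS arrays. The PBS arrays held both the highest and the lowest value, and the PDGF-CC arrays lay between them. The difference was -0.07 ± 0.238 (SE), with -0.46 within numbers 1 to 4 and +0.63 within 5 to 7, and it was -0.38 without PBS array 3, +0.15 without PBS array 2 and +0.02 without PBS array 1. Dropping PDGF-CC array 1 gave -0.02 and dropping PDGF-CC array 3 gave -0.13. The other 3 probe sets differed by -0.08, -0.16 and +0.09. Fabp5 has near-identical copies in the mouse genome, which a probe set may not tell apart.

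Plin2, the droplet coat protein gene, hardly varied. It was at 7.20, 7.30, 7.16 and 7.29 in the PDGF-CC arrays and at 7.29, 7.30 and 7.35 in the PBS arrays, a range of 0.19 over the 7 arrays, whereas Angptl4 spanned 2.55. The difference was -0.08 ± 0.0555 (SE), with overlapping groups, or 1.05-fold lower (-0.05 without PDGF-CC array 3).

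Of the receptors, Ppara was at 4.66, 4.83, 4.74 and 4.84 in the PDGF-CC arrays and at 4.84, 4.92 and 5.40 in the PBS arrays. PBS array 3 was apart from the other 6, which lay between 4.66 and 4.92. The difference of -0.28 ± 0.137 (SE) was -0.11 without PBS array 3. Ppard, the form found most widely across tissues, was at 7.31, 7.10, 7.55 and 7.50 against 7.37, 7.30 and 7.41, with all PBS values inside the PDGF-CC range. Its difference was +0.01 ± 0.112 (SE), and from -0.05 to +0.10 when any 1 array was dropped.

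Pparg, the form of fat cells and macrophages, was at 4.29, 4.27, 4.40 and 4.52 against 4.40 in each PBS array, a difference of -0.03 ± 0.0713 (SE). The difference was -0.08 without PDGF-CC array 4 and 0.00 without PDGF-CC array 1 or 2. Its deposited value was the same to the last digit in 4 of the 7 arrays, so the lack of spread in PBS is no measure of precision. Such equal values were common, between 2527 and 4475 of 33793 probe sets for a pair of arrays, and their origin was not tested. Ppara and Pparg lay close to the brightness filter of 4.145, where arrays respond little to a change in RNA.

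**Figure D2:**
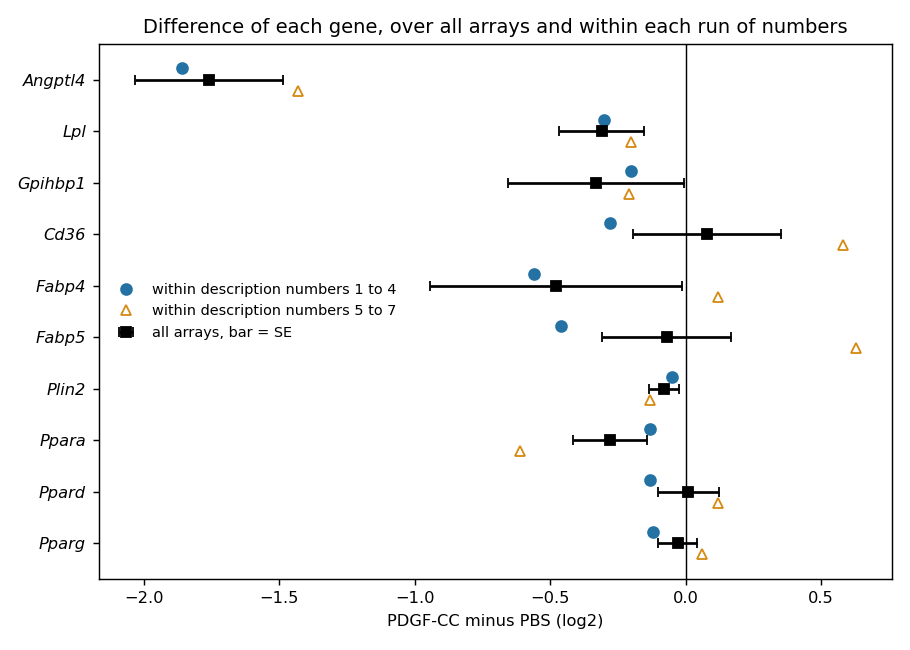
PDGF-CC minus PBS on the log2 scale for each gene: black squares with SE bars for all 7 arrays, blue circles for arrays with description numbers 1 to 4, open triangles for 5 to 7. Angptl4 lies at -1.76, -1.86 and -1.43, while Cd36, Fabp4, Fabp5, Ppard and Pparg differ in sign between the runs of numbers.

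Within description numbers 1 to 4, with 2 arrays a group, the brightest probe sets of all 10 genes were lower after PDGF-CC. The fall was 0.05 (Plin2) to 1.86 (Angptl4) on the log2 scale. There the dimmer Lpl probe set was at +0.05 and the dimmest of Fabp5 at +0.12, with the remaining Fabp5 probe sets at -0.50 and -0.69. The share of all probe sets lower in that run was not computed. Within 5 to 7, with 2 PDGF-CC arrays and 1 PBS array, 5 of the 10 were lower: Angptl4, Lpl, Gpihbp1, Plin2 and Ppara. PBS array 3 is the only control in that second run.

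Around these 10 genes, 107 further genes of the pathway were listed, in 6 groups, of which 92 had a probe set of their own and 80 passed the brightness filter. Of the 80, 47 were lower and 33 higher, with a median difference of -0.019, and 0 were called by limma (lowest adjusted p = 0.623). At an unadjusted p under 0.05 there were 5 (6.25%), near the 6.04% of all probe sets. In 5 of the 80 (6.25%, beside 2.50% of all tested probe sets) every PDGF-CC array was below every PBS array: Pdk4, Txnip, Lipe, Lpin1 and Acadl. In 0 of the 80 every PDGF-CC array was above every PBS array, beside 1.80% of all. For Acadl, PDGF-CC arrays 3 and 4 and PBS arrays 1 and 3 were all at 9.15, so its groups part only past the printed digits. Lpin1 reached 6.31 after PDGF-CC and went down to 6.35 in PBS. The lists were drawn up with earlier results of these data known, so nothing is read from these counts.

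Among 20 tested targets of the PPARs, 11 were lower and 9 higher, and 0 were called. The split was even, or turned to 9 and 11, under other scalings. It was 12 and 8 with the runs of description numbers as a block. Leaving out 1 array gave from 13 and 7 (without PDGF-CC array 4) to 9 and 11 (without PBS array 3). Pdk4, the kinase that blocks pyruvate oxidation when fatty acids are burnt, was at 7.59, 7.59, 7.58 and 7.51 after PDGF-CC and at 8.56, 8.84 and 7.99 after PBS. The PDGF-CC arrays lay within 0.1 of each other and under all PBS arrays. Its difference was -0.89 ± 0.182 (SE, limma adjusted p = 0.722). Txnip, which encodes thioredoxin-interacting protein, an inhibitor of glucose uptake, was at 10.67 ± 0.12 (SD, n = 4) and 11.19 ± 0.11 (SD, n = 3), a difference of -0.52 ± 0.0864 (limma adjusted p = 0.623). Both genes are also known targets of regulators other than PPARs. The carnitine carrier gene Slc25a20 differed by -0.15 ± 0.0691 and the acyl-CoA thioesterase gene Acot1 by -0.41 ± 0.191 (-0.24 without PBS array 2), each with a limma adjusted p of 0.769. Klf10 had the largest rise of the 20, +0.42 ± 0.209 (SE), and is named here after its values were seen. It was at 7.26, 6.88, 7.78 and 7.12 after PDGF-CC and at 6.62, 6.98 and 6.91 after PBS, so its groups overlapped.

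The partners of the PPARs differed little. Of 10 tested RXRs, coactivators and corepressors 6 were lower and 4 higher, all between -0.178 and +0.180. Lpin1, a phosphatase and coactivator, was at -0.17 ± 0.0695, Ppargc1a, the coactivator PGC-1 alpha, at -0.18 ± 0.0928 and Rxrb at +0.18 ± 0.112 (+0.08 if PBS array 2 is dropped and +0.11 if PDGF-CC array 1 is). The deacetylase gene Hdac3 was at +0.12 ± 0.105, and at +0.03 without PDGF-CC array 3. Their limma adjusted p lay between 0.769 and 0.791.

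Other regulators of LPL and other ANGPTL genes numbered 15, with 8 lower, 7 higher and a median of -0.005. With quantile normalization repeated the split was 6 lower and 9 higher, and with arrays centred on their medians 5 and 10. Leaving out 1 array gave from 11 and 4 (without PDGF-CC array 2) to 6 and 9 (without PBS array 1). Angptl8, which acts on LPL together with other ANGPTLs, was at +0.16 ± 0.0912 (+0.10 without PDGF-CC array 2). Apoc2, the cofactor that LPL needs, was at -0.34 ± 0.207, from -0.52 without PBS array 3 to -0.19 without PDGF-CC array 4. Apoc3, an inhibitor of LPL, was at -0.05 ± 0.0613, with +0.01 when PBS array 2 was dropped and -0.08 when either of the other PBS arrays was. The heparan sulphate carrier gene Sdc1 was at +0.07 ± 0.082, turning to -0.03 when PBS array 3 was dropped and growing to +0.14 when PBS array 2 was.

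Fatty acid and lipoprotein uptake genes were 8 lower and 5 higher of 13, with a median of -0.021. Mfsd2a, which carries lysolipids with docosahexaenoic acid across the barrier, was at 9.34, 9.49, 9.74 and 9.90 after PDGF-CC and at 9.16, 9.16 and 9.76 after PBS. PBS array 3 lay among the PDGF-CC arrays. The difference of +0.26 ± 0.192 became +0.46 when PBS array 3 was dropped, +0.17 when PDGF-CC array 4 was, and +0.16 when PBS array 1 or 2 was. The receptor genes Vldlr and Lrp8 were at -0.17 ± 0.110 (-0.06 without PBS array 2) and +0.08 ± 0.0638 (+0.04 if PBS array 2 is dropped and +0.05 if PDGF-CC array 4 is), and the brain carrier gene Fabp7 at -0.09 ± 0.0561.

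Lipid droplet and lipolysis genes were 9 lower and 5 higher of 14, with a median of -0.041. The lipase genes Lipa (lysosomal) and Lipe (hormone-sensitive) were at -0.25 ± 0.0964 and -0.23 ± 0.0938, each with a limma adjusted p of 0.769. Pnpla2, the adipose triglyceride lipase gene, was at -0.16 ± 0.111 (-0.07 without PDGF-CC array 1). Its activator gene Abhd5 was at +0.19 ± 0.106 (+0.07 without PBS array 2).

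Angptl4 is also a known target of glucocorticoid, hypoxia and FOXO signalling, and 8 genes of these factors were tested. Of these 5 were lower and 3 higher. Nr3c1, the glucocorticoid receptor gene, was at 9.07 ± 0.09 (SD, n = 4) and 9.10 ± 0.14 (SD, n = 3), named here after its values were seen. The mineralocorticoid receptor gene Nr3c2 was at -0.29 ± 0.147. Hif1a was at -0.07 ± 0.0553 (-0.04 without PDGF-CC array 1 or without PBS array 2), its partner gene Arnt at +0.11 ± 0.0835 (+0.03 without PBS array 2) and Foxo4 at +0.10 ± 0.0991 (+0.01 without PDGF-CC array 4). Levels of these transcripts do not show how active the factors were.

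**Figure D3:**
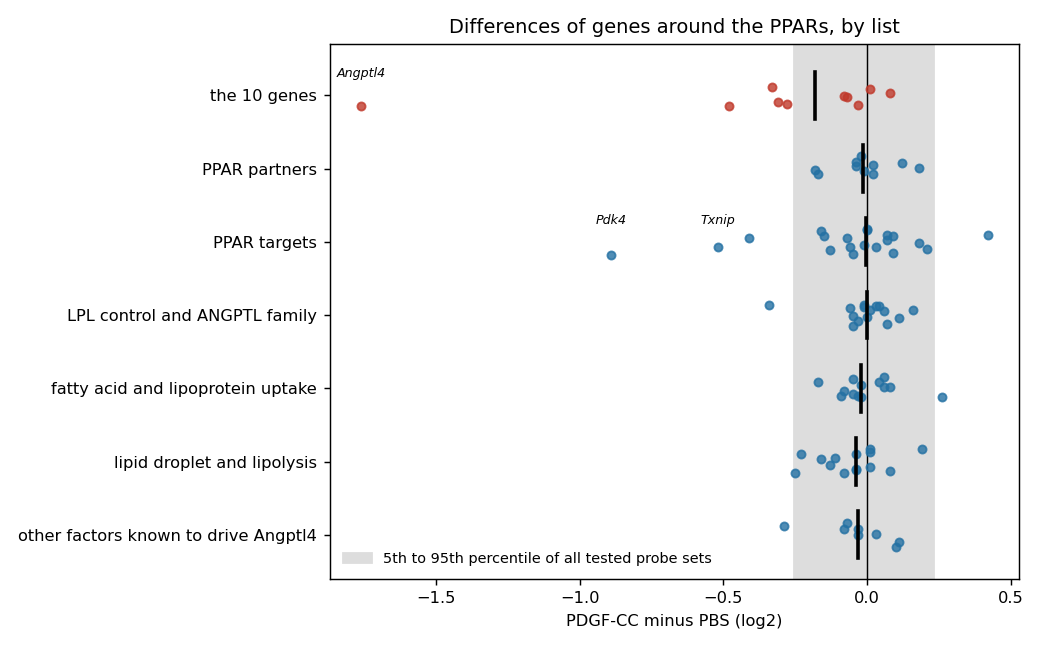
PDGF-CC minus PBS (log2) for the 10 genes (red) and for each tested gene of the 6 pathway groups (blue), with a bar at each median. The grey band spans the 5th to 95th percentile of all tested probe sets, -0.254 to +0.233, and Angptl4, Pdk4 and Txnip lie farthest below it, at -1.76, -0.89 and -0.52.

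Across the 7 arrays, the genes with the pattern most like that of Angptl4, of 15013 probe sets compared, were Nceh1 (Pearson r = 0.975), Trp53inp1 (0.964), Rgcc (0.958), Cdkn1a (0.958) and Sema6b (0.958). Nceh1 encodes a hydrolase of cholesterol esters and was at 7.51 to 7.66 in the PDGF-CC arrays and 7.78 to 8.02 in the PBS arrays. All 5 have groups that do not overlap, which by itself raises r over 7 arrays. With each group centred on its own mean, r with Angptl4 was 0.847 for Nceh1 and between 0.654 and 0.734 for the other 4. By that second measure the gene most like Angptl4 was Cebpd, a transcription factor gene of the acute phase, at r = 0.981. Cebpd was at 7.16, 7.78, 7.34 and 7.26 against 7.99, 8.19 and 7.52, so PDGF-CC array 2 and PBS array 2 were highest in their groups for both genes. The next were Cited4 (0.973), Jade3 (0.972), Mir5112 (0.971) and Ndufa5 (0.971), whose r over all arrays uncentred was between -0.001 and 0.055. These are descriptions, from arrays that share their labelling and normalization. Here and below, picking the highest r of 15013 probe sets over only 7 arrays by itself gives high values.

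The same measure was taken for Fabp4, Gpihbp1 and Cd36 after their spread had been seen. The genes most like Fabp4 over the 7 arrays were Klra2 (r = 0.996), Ifi205 (0.993), Dpep2 (0.981), Ms4a4c (0.971) and Gda (0.970). Klra2, a lectin-like receptor gene, was at 5.78, 5.16, 4.93 and 4.20 after PDGF-CC and at 6.04, 6.07 and 4.39 after PBS, with PDGF-CC array 4 and PBS array 3 lowest, as for Fabp4. Clec4e, an innate immune receptor gene, followed at 0.970 and Wfdc17 at 0.968. For Gpihbp1 the nearest was Tcf15, a transcription factor gene, at r = 0.962. Its lowest values were 6.18 in PDGF-CC array 3 and 6.37 in PBS array 3. For Cd36 the nearest were Ccdc170 (0.987), which only spanned 4.52 to 4.69, and Abracl (0.978).

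Some markers of neutrophils and monocytes shared the low arrays of Fabp4. Within their groups S100a8, S100a9, Cxcr2 and Ccr2 were lowest in PDGF-CC array 4 and PBS array 3. Ly6c2, Ltf, Ly6g and Mmp9 did not clearly show this in both groups, and Mmp9 was highest in PBS array 3. All 8 listed had a probe set, and 6 of 7 tested were lower in PDGF-CC. The mean difference of the 7 was -0.344, and ran from -0.666 to -0.103 when any 1 array was dropped. The summed level of the list was 10.98, 10.75, 10.71 and 9.90 in the PDGF-CC arrays and 11.53, 11.23 and 10.33 in the PBS arrays, so PDGF-CC array 4 and PBS array 3 were lowest here too. Ccr2, the chemokine receptor of blood monocytes, was at 8.55, 7.76, 7.29 and 6.17 against 8.38, 7.58 and 6.46. Its difference between the treatments was only -0.03 ± 0.634 (SE). S100a8, a calcium-binding protein gene of neutrophils and monocytes, was at 8.57, 8.36, 8.26 and 6.35 against 9.47, 9.26 and 7.14. The S100a8 difference of -0.74 ± 0.735 (SE) shrank to -0.23 on dropping PDGF-CC array 4 and grew to -1.48 on dropping PBS array 3. That of Cxcr2, -0.50 ± 0.386, came to -0.10 if PBS array 1 was left out and to -0.90 if PBS array 3 was. S100a9, the partner gene of S100a8, differed by -0.64 ± 0.619 (SE), from -1.22 without PBS array 3 to -0.18 without PDGF-CC array 4. It spanned 7.01 to 9.71, the neutrophil chemokine receptor gene Cxcr2 5.19 to 7.09 and the monocyte surface marker gene Ly6c2 9.19 to 9.78. The other 3 were dimmer, with Ly6g at 2.42 to 3.46 (under the filter), Ltf at 4.38 to 4.62 and Mmp9 at 3.90 to 4.88. The part of these cells in the Fabp4 values was not tested. Of 7 adipocyte markers with a probe set 4 were under the filter: Adipoq (3.47 to 3.85), Lep (2.99 to 3.26), Cidec (3.38 to 3.79) and Adig (3.26 to 3.65). The other 3 passed it, Lipe at 5.74 to 6.28, Plin1 at 4.82 to 5.57 and Retn at 4.19 to 4.44. The summed level of the 7 was 7.28 to 7.46 in PDGF-CC and 7.36 to 7.56 in PBS, and the part of fat cells in the values was not tested.

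**Figure D4:**
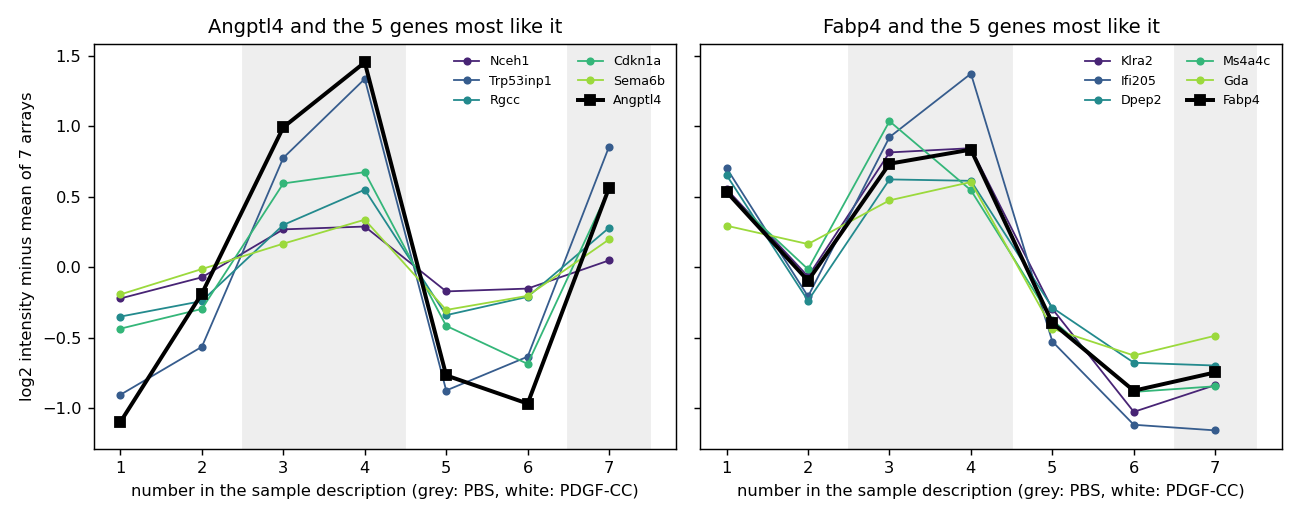
Log2 intensity minus the mean of the 7 arrays, in the order of the numbers in the sample descriptions, for Angptl4 (left) and Fabp4 (right) in black with the 5 genes most like each in colour; PBS arrays are shaded. Angptl4 is high in the shaded arrays (7.34 to 8.23), while Fabp4 is high in numbers 1 to 4 (mean 8.65) and low in 5 to 7 (mean 7.48).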

How the data were processed

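Per the labels, each sample gave 10 ng of RNA for whole-transcript amplification and biotin labelling. The authors deposited 1 log2 intensity per probe set and array; the submitters' processing notes name RMA, limma and Affymetrix Expression Console, with no settings. The genome build is not given in the sources used here. RMA sets the distributions of arrays nearly equal, so a shift in total RNA cannot be seen (array medians 4.873 to 4.946). Arrays carry no read depth, and their number limits the precision. Arrays correlated at 0.987 to 0.994.

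Of 33793 probe sets, 23521 had 1 gene symbol; none with several symbols (1814) names a gene. Probe sets with a symbol were tested where their mean passed the 30th percentile, 4.145. The fit used limma 3.58.1 (lmFit, eBayes; R 4.3.3) with no covariate, 2-sided, and Benjamini-Hochberg adjustment over all 17734 and a threshold of 0.05, and was tested on simulated data. SE are those of the fit. Symbols are those of the platform annotation. Of the listed genes, 15 of 107 pathway and 13 of 124 cell type genes were not analysed here. The genes and lists were chosen with earlier results of these data known. Named genes were the 10 and, in each pathway list, those past the threshold or up to 4 of smallest p. The 5 most like Angptl4 by each measure, without predicted, Rik, olfactory and vomeronasal genes, were named too. Outside this rule, Nr3c1, Acadl, Klf10, Cldn5, Slc2a1 and the neutrophil, monocyte and adipocyte markers were also named. Likeness to Fabp4, Gpihbp1 and Cd36 was added after seeing the data. Figures were drawn with matplotlib 3.10.9.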

Additional observations from a re-analysis of the deposited data

Results flagged for a closer look

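In the group of 4 PDGF-CC arrays, 7 of 34 genes examined had 1 array far from the other 3, by Dixon's test. Those examined were the 10 genes and the pathway genes named by the rule above. Chance alone gives such an array in about 1 of 20 groups of values without ties. Groups of 3 were not examined. Hdac3 and Sdc1 each had the same deposited value in several arrays, which by itself makes 1 differing array stand apart, so for them the test says nothing. Of the 10 genes these were Cd36, at 6.40 in PDGF-CC array 3 with the others at 5.43 to 5.56, and Lpl, at 6.73 in PDGF-CC array 4 with the others at 7.09 to 7.15. Among the pathway genes, PDGF-CC array 3 stood apart for Hdac3 (7.95, others 7.57 to 7.58) and Sdc1 (7.58, others 7.54), and PDGF-CC array 4 for Pdk4 (7.51, others 7.58 to 7.59) and Foxo4 (7.09, others 6.72 to 6.75). PDGF-CC array 2 stood apart for Lpin1 (6.09, others 6.28 to 6.31). For Sdc1 and Pdk4 the gap was under 0.1 on the log2 scale.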

How the results depend on the processing

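None of the 10 genes and none of the pathway genes was called by limma in any alternative fit that tested it. With the filter at the 50th percentile Ppara, Pparg and some pathway genes were not tested, and the mean over all probe sets of a gene was taken as a value without a fit. Over the whole table, 3 probe sets were called after filtering at the 50th percentile, 3 with arrays centred on their median, 3 with a trended and robust prior and 1 with quantile normalization repeated; leaving out 1 array gave 0 to 1, the latter without PDGF-CC array 3. The cause was not tested. The Angptl4 difference lay between -1.98 and -1.53 over the 17 alternatives. Other filters, the trended and robust prior and the mean over its single probe set cannot move it from -1.76, so they say nothing of its stability. It was -1.69 when the runs of description numbers (1 to 4, 5 to 7) formed a block and -1.84 when the number was a covariate. With that covariate Fabp4 moved from -0.48 ± 0.465 (SE) to -0.82 ± 0.214 and Gpihbp1 from -0.33 ± 0.324 to -0.53 ± 0.235, and with that block to -0.29 ± 0.225 and -0.20 ± 0.171. Lpl was at -0.13 as the mean of its probe sets. The sign of the difference stayed the same for Lpl, Gpihbp1, Fabp4, Plin2 and, where tested, Ppara. It changed in 2 alternatives each for Cd36 and Fabp5 and in 5 for Ppard. For Pparg, 4 alternatives gave a positive difference or one that rounded to 0.00. Title numbers 1 to 3 occur in both groups, and deviations of same-numbered arrays correlated at 0.163, 0.107 and 0.084. Arrays of different numbers were not compared, so these values cannot decide whether the numbers mark pairs. The main fit did not use them. With the numbers as a replicate block the Angptl4 difference was -1.69 ± 0.165 (SE) and 0 probe sets were called. PDGF-CC array 4 has no PBS array of its number, so this difference equals the one found without it. The SE of Gpihbp1 fell from 0.324 to 0.106, and that of Cd36 rose from 0.273 to 0.334. Values near the filter of 4.145 limit what can be seen for Ppara and Pparg.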
